A study of Mus musculus with 17 samples.

Results

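Adipocyte genes and the receptors for adiponectin were followed through the forestomach of mice given benzo(a)pyrene (BaP), a polycyclic aromatic hydrocarbon. The 10 genes were fixed by name, 8 adipocyte markers (Adipoq, Fabp4, Plin1, Lep, Cfd, Retn, Lipe and Pnpla2) and 2 receptors (Adipor1 and Adipor2), out of 20018 named genes on the array. Each was matched through the RefSeq transcript of its probe and had 1 probe. All 10 passed the filter on dim probes, and they were tested among 21382 genes.

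Every array compared the forestomach RNA of 1 male MutaTMMouse animal, a transgenic strain, in the Cy5 channel with Universal Mouse Reference RNA from 11 mouse cell lines in the Cy3 channel. Control mice (n = 5) were gavaged with olive oil only, and the dosed mice took BaP in olive oil at 25, 50 or 75 mg/kg body weight (n = 4 at each dose), daily for 28 days, with tissue collected 72 h later at an age of 24 to 26 weeks. The RNA came from random sections of whole forestomach, so each value is a sum over all the cells of a section, and fewer cells of a type cannot be told apart from less RNA per cell. The 17 animals are separate samples, and no array had its dyes swapped.

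Adipocytes store triglyceride in a lipid droplet coated by perilipin (Plin1) and release fatty acids through the lipases ATGL (Pnpla2) and HSL (Lipe). They secrete hormones and other proteins, among them adiponectin (Adipoq), leptin (Lep), resistin (Retn) and the complement protease adipsin (Cfd), and carry fatty acids on FABP4 (Fabp4). Adiponectin acts through 2 membrane receptors that most tissues make, of which AdipoR1 is mainly tied to the kinase AMPK and AdipoR2 to the nuclear receptor PPARα. Of the 8 markers, Adipoq, Plin1, Cfd and Retn are the more restricted to fat cells, whereas Fabp4 is also made by capillary endothelium and macrophages and both lipases by many tissues.

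The promoters of 2 markers that varied together between arrays are shown with those of both receptors. They are the RefSeq entries of build GRCm38.p6, 300 bases from 250 before to 50 after a transcript start, on the gene's strand. Capitals mark matches on either strand to 5 motifs: the CCAAT box (CCAAT, present in 37.4% of 32851 promoters of this length), the TATA box (TATAAA, 13.6%), the nuclear receptor half-site (AGGTCA, 16.3%), the GC box (GGGCGG, 35.7%) and the C/EBP core (TTGCNNAA, 10.8%). The windows lie at chr16:23146286-23146585 on the plus strand (Adipoq), chr7:79732727-79733026 on the minus strand (Plin1), chr1:134415128-134415427 on the plus strand (Adipor1, the first of 2 entries) and chr6:119388685-119388984 on the minus strand (Adipor2).
Adipoq: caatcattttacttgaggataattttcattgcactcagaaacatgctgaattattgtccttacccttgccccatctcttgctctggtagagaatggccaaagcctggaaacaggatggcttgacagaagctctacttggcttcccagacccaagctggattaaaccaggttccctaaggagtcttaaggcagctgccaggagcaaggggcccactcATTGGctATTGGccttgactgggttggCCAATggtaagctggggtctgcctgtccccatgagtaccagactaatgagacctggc
Plin1: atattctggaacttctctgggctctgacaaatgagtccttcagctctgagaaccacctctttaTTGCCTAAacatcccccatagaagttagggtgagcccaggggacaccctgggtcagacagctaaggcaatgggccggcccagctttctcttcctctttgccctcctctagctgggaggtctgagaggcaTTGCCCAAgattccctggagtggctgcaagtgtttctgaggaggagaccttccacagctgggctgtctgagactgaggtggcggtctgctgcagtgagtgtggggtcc
Adipor1: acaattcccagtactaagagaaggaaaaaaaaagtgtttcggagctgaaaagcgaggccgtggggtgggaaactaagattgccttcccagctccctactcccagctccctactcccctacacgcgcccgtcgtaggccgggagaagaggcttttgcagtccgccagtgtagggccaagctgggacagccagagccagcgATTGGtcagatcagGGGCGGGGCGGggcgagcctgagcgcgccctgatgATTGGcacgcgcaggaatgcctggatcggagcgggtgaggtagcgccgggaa
Adipor2: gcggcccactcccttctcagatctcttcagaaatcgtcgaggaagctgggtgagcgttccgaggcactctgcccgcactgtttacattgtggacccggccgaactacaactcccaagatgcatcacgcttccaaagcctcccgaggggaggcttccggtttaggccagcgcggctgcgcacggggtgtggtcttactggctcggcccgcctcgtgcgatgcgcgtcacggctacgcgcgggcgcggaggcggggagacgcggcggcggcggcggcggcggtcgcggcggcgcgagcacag

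The Adipoq window held 3 CCAAT boxes, the nearest from -7 to -3 relative to the start, and 0 CG dinucleotides at a GC content of 50.0%. Plin1 had 2 C/EBP cores, at -187 to -180 and -58 to -51, with 2 CG dinucleotides and 55.7% GC. In the Adipor1 window there were 2 CCAAT boxes, 2 GC boxes that share a base and 21 CG dinucleotides (61.0% GC). The Adipor2 window held 41 CG dinucleotides and 68.7% GC, and none of the 5 motifs. The median GC content over all promoters was 52.7%. Of the 10 genes, 9 had an entry. Cfd and Retn, at 57.7% and 54.0% GC, had 2 CG dinucleotides each, whereas Lep had 19 and Pnpla2 had 18. Neither TATAAA nor AGGTCA occurred in any of the windows.

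In Cy5, the share of probes that cleared the background was 39.8% to 50.7% per array, and the median Cy5 spot signal was 75.5 to 96 over a local background of 64 to 74.5. The section's makeup differed between animals. Markers of the squamous epithelium, such as Krt5, Krt14 and Trp63, were well above background on all 17 arrays. The mean of 8 glandular stomach markers, as log2 deviations from their means over all arrays, was 4.19 on 25 mg/kg replicate 7 and between -1.33 and 1.59 on the other arrays. The corresponding mean of 3 pancreas acinar genes was 2.03 on 75 mg/kg replicate 17 and at most 0.15 elsewhere. For 4 lymphocyte genes it was 2.30 on control replicate 2 and at most 0.81 elsewhere. Several of the values below are also given without these animals.

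The level of the markers restricted to fat cells differed far more between animals than between doses. Adiponectin (Adipoq, transcript NM_009605, chromosome 16) was well above background on 11 of the 17 arrays, with Cy5 signals of 160 to 2488. Its signal was 72.5 to 75 on the other 6, over backgrounds of 65.5 to 77 across arrays. The log2 ratio of Cy5 over Cy3 was 4.37, 0.09, 1.70, 4.12 and 2.27 in control replicates 1 to 5. At 25 mg/kg it was 5.40, 0.13, 2.64 and 3.42 in replicates 6 to 9, at 50 mg/kg -0.10, 0.05, 2.42 and 2.84 in replicates 12 to 15, and at 75 mg/kg -0.14, -0.16, 2.84 and 2.24 in replicates 17 to 20. Each group held arrays with and without measurable Adipoq, and all 4 groups overlapped. The arrays with a signal were 4 of 5 controls, 3 of 4 at 25 mg/kg, and 2 of 4 at each of 50 and 75 mg/kg. By slide they were 2 of 6, 5 of 7 and 4 of 4.

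Resistin, perilipin and adipsin followed the same animals. Retn ran from 0.86 to 3.74 on the 11 arrays with measurable Adipoq, and from -0.57 to -0.21 on the other 6, where it was never well above background. Plin1 lay between 0.65 and 3.80 on the former and between -0.11 and 0.07 on the latter, again with none of the 6 well above background. For Cfd the ranges were 4.14 to 7.42 and 0.10 to 1.29, and 2 of those 6 arrays (50 mg/kg replicate 12 and 75 mg/kg replicate 18) had a signal well above background. The ranges of these 3 genes did not overlap between the 2 sets of arrays. In Cy5 signal, Cfd spanned 83 to 12192.5 over all animals, Retn 68.5 to 1210 and Plin1 70.5 to 677.

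**Figure D1:**
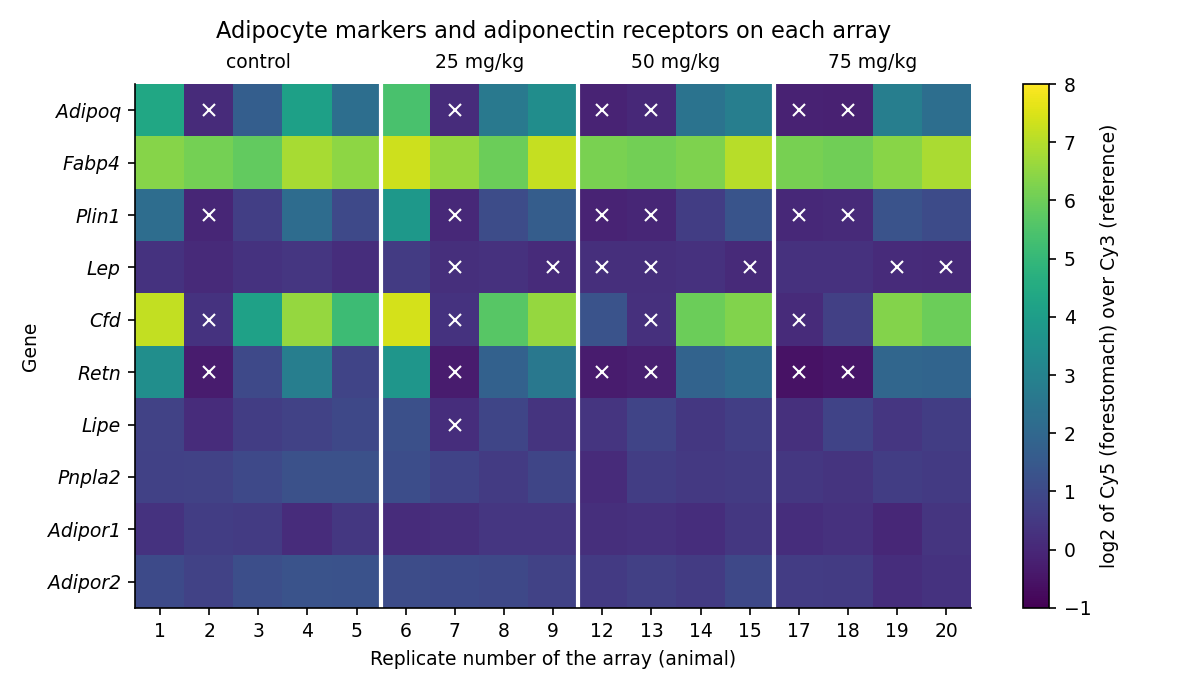
Log2 of Cy5 (forestomach) over Cy3 (reference) for the 10 genes (rows) on the 17 arrays (columns, by replicate number and dose group), with colour as the log2 ratio. A cross marks an array on which the probe was not well above background in Cy5: Adipoq, Plin1 and Retn carry it on the same 6 arrays, and Fabp4, Pnpla2, Adipor1 and Adipor2 on none.

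The remaining markers depended less on these animals. Fabp4, the fatty acid carrier, was bright on every array (Cy5 signal 3923 to 23589.5). Its log2 ratio was 5.83 to 7.33 on the 11 arrays with Adipoq and 6.04 to 6.58 on the 6 without, so the ranges overlapped throughout. Lipe, the hormone-sensitive lipase, was well above background on 16 arrays at low signals of 88.5 to 187, with log2 ratios of 0.14 to 1.18. Lep, spotted 10 times, was close to background on all arrays (Cy5 signal 82.55 to 107.95) and well above it on 10. Its log2 ratio, 0.07 to 0.55, spanned 0.49 over the arrays, beside an SD between its spots of 0.103 to 0.244 on an array. Of the 2 sets of arrays, those with Adipoq gave Lep ratios of 0.07 to 0.55 and those without 0.07 to 0.28.

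Likeness to Adipoq was measured as Pearson's r over the 17 arrays after each dose group's mean was taken off, as a description of arrays that share slides and a reference. Adipoq was not well above background on 6 of them, so r includes the step between arrays with and without it. Among the 10 genes, Retn (r = 0.989), Cfd (0.954) and Plin1 (0.952) came first, followed by Fabp4 (0.654), Lipe (0.527), Pnpla2 (0.464) and Lep (0.323). Adipor2 had r = 0.129 and Adipor1 r = -0.349. Among all other named genes tested, the closest were Cidec (0.985), which fuses lipid droplets, Thrsp (0.902), which promotes lipogenesis, Adig (0.860), the adipocyte protein adipogenin, Arxes2 (0.860) and the desaturase Scd1 (0.855).

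With dose group in the model, the slope on Adipoq passed limma's test for 7 of 21381 other genes, or 0.0327%, and all 7 rose with it. Retn rose by 0.83 ± 0.04 log2 units per log2 unit of Adipoq (SE, adjusted p = 1.06e-09). Cfd rose by 1.64 ± 0.13 (adjusted p = 6.26e-06), Plin1 by 0.55 ± 0.05 (adjusted p = 1.15e-05) and Cidec by 0.81 ± 0.04 (adjusted p = 4.64e-09). All 17 arrays entered, so these slopes include the step between the 6 arrays without measurable Adipoq and the 11 with it. For Cfd that step was from 0.10 to 1.29 up to 4.14 to 7.42. The slopes are therefore not rates of rise among sections that held a signal. Thrsp and Adig rose by 0.59 ± 0.07 and 0.40 ± 0.06 (limma adjusted p = 0.00164 and 0.022). The seventh was a transcript that had no symbol through RefSeq, with a slope of 0.76 ± 0.04 (limma adjusted p = 7.76e-09). Whether it belongs to 1 of the genes named here was not determined. Fabp4 had a slope of 0.17 ± 0.05 (limma adjusted p = 0.622), Lipe 0.10 ± 0.04 (0.622) and Pnpla2 0.06 ± 0.03 (0.624). Neither receptor passed: the slope was 0.01 ± 0.03 for Adipor2 (limma adjusted p = 0.902) and -0.03 ± 0.03 for Adipor1 (0.712).

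Of the 26 further adipocyte genes tested, 3 (Cidec, Thrsp and Adig) rose with Adipoq and none fell, with a median slope of 0.10. Among genes of other cells, none of the markers passed in either direction: 0 of 9 for endothelium, 0 of 7 for macrophages, 0 of 8 for fibroblasts, 0 of 9 for smooth muscle, 0 of 6 for mesothelium, which covers the outer face of the stomach, and 0 of 10 for squamous epithelium. Unadjusted limma p-values under 0.05 numbered 1, 0, 3, 0, 0 and 2 in these lists, where 7.54% of all genes had one. Of 4 lymphocyte genes 0 passed and 3 had an unadjusted p under 0.05 (median slope -0.19), and of 3 pancreas acinar genes 0 passed and 1 had one (median slope -0.09). The 5 brown adipocyte genes tested gave 0 as well (0 unadjusted), and Ucp1, which defines that cell, was well above background on 3 arrays and not tested. Glandular stomach markers had a median slope of -0.28, with 0 of 8 passing (2 unadjusted).

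No adipocyte marker passed the test at a single dose. At 25 mg/kg 0 of the 10 genes passed limma's test, where 0.014% of all genes did, and at 50 mg/kg 0 of 10 passed, against 0.0468%. At 75 mg/kg 1 of 10 passed, Adipor2, which was lower, where 1.1% of all genes passed and 0.21% passed as lower. Between 75 and 25 mg/kg 0 of 10 passed, against 0.0608% of genes. An unadjusted p under 0.05 was reached by 0 of 10 genes at 25 mg/kg and by 2 (Adipor2 and Pnpla2) at 50 mg/kg, at 75 mg/kg and at 75 against 25 mg/kg. Of all genes 3.26%, 6.81%, 10.1% and 4.74% had one in these 4 comparisons. Along dose, fitted as a straight line, Adipor2 and Pnpla2 passed as lower, where 1.35% of genes passed and 0.299% did so as lower. The fitted difference was negative for 4 of 10 genes at 25 mg/kg and for 9 of 10 at both 50 and 75 mg/kg. Its median over the 10 was 0.17, -0.49 and -0.55 at the 3 doses, and that of all genes was 0.01, -0.01 and -0.01. Retn, Cfd and Plin1 varied with Adipoq between animals, so the 10 genes are not separate observations. Such counts of signs and medians, here and in the gene lists below, describe the genes and test nothing. The 3 doses share the same 5 control arrays.

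The spread between animals set the precision for the fat-restricted markers. Adipoq averaged 2.51 ± 1.77 (SD, n = 5) in controls and 1.19 ± 1.58 (n = 4) at 75 mg/kg, a difference of -1.31 ± 1.06 (SE, limma adjusted p = 0.743) with a 95% confidence interval from -3.55 to 0.93. Cfd averaged 4.67 ± 2.71 in controls and 3.28 ± 3.34 at 75 mg/kg, and its difference of -1.39 ± 1.83 (limma adjusted p = 0.86) had an interval from -5.25 to 2.46. Differences of -0.84 ± 0.90 for Retn and -0.59 ± 0.62 for Plin1 were smaller than their errors (limma adjusted p = 0.814 and 0.809). Dose groups accounted for 17.9% of the variance of Adipoq, 20.8% of that of Plin1, 12.4% of that of Retn and 6.95% of that of Cfd. Means of few animals differ even where dose has no effect, so some share is always found. Within slides 1, 2 and 3 the difference at 75 mg/kg was -2.37, -1.57 and -0.02 for Adipoq, and -3.64, -1.84 and 0.79 for Cfd. These slides held 1, 2 and 1 arrays at 75 mg/kg and 2, 2 and 1 controls, so slide 3 sets 1 animal against 1. On the 11 arrays with measurable Adipoq, a subset chosen after the data were seen, Cfd differed by 0.39, the opposite sign.

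Fabp4 differed by 0.03 ± 0.28 at 75 mg/kg (limma adjusted p = 0.983), with an interval from -0.55 to 0.62, and its sign turned without control replicate 2 or 3, without 75 mg/kg replicate 20 and with a smaller background offset. Lep and Lipe differed by -0.08 ± 0.10 and -0.13 ± 0.20 (limma adjusted p = 0.86 and 0.886). At 25 mg/kg Adipoq stood at 0.39 ± 1.06 and Fabp4 at 0.45 ± 0.28 (limma adjusted p = 0.999 for both). Without 25 mg/kg replicate 6, which had the highest Adipoq of all arrays, the Adipoq value was -0.44. Without control replicate 2 it was -0.21.

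**Figure D2:**
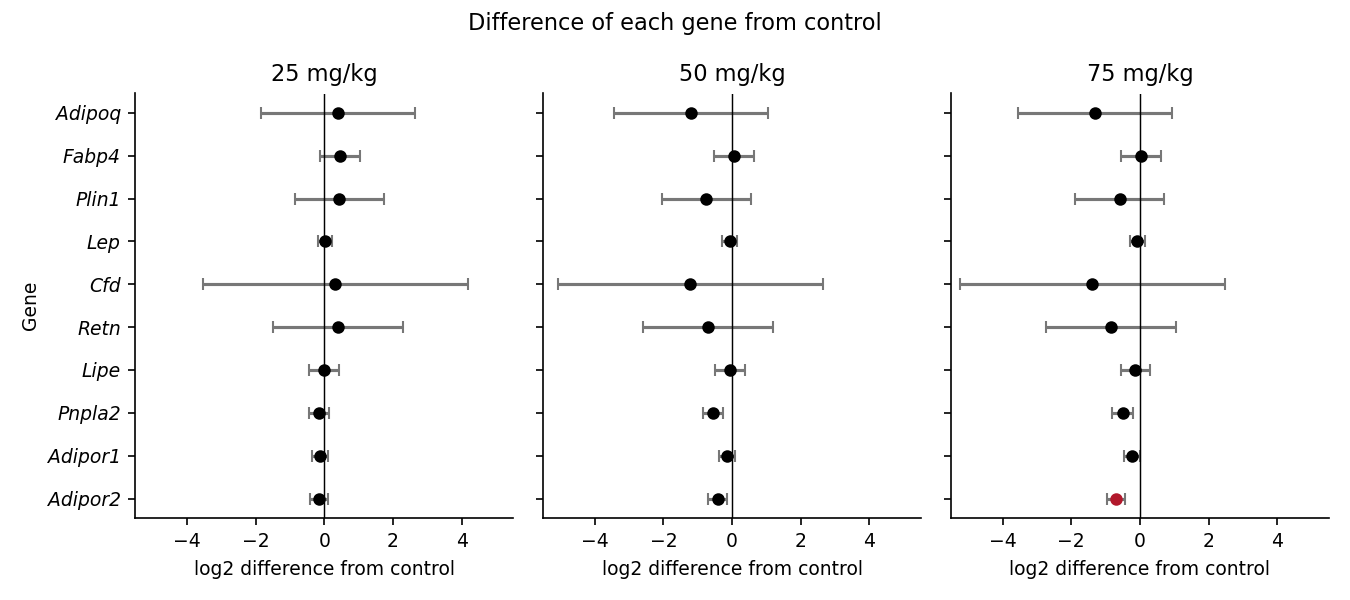
Log2 difference of each gene from control at 25, 50 and 75 mg/kg, with 95% confidence intervals from the fit (n = 5 controls, n = 4 at each dose). The red point, Adipor2 at 75 mg/kg (-0.69), is the only one with a limma adjusted p under 0.05, and the intervals of Adipoq and Cfd span several log2 units.

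Pnpla2 encodes ATGL, the lipase that takes the first fatty acid from stored triglyceride. Its log2 ratio was 0.74, 0.79, 1.00, 1.24 and 1.22 in controls, 1.14, 0.81, 0.55 and 0.88 at 25 mg/kg, 0.11, 0.62, 0.49 and 0.56 at 50 mg/kg, and 0.45, 0.34, 0.64 and 0.53 at 75 mg/kg. All arrays at 50 and 75 mg/kg were below all controls, and those at 25 mg/kg overlapped them. Such separation from control occurred for 2.21% of all genes at 50 mg/kg (0.988% with the dosed arrays lower) and for 3.3% at 75 mg/kg (1.31% lower). The differences were -0.55 ± 0.14 at 50 mg/kg (limma adjusted p = 0.287) and -0.51 ± 0.14 at 75 mg/kg (adjusted p = 0.128), with an interval from -0.80 to -0.21 at the higher dose. Along dose Pnpla2 fell by 0.19 ± 0.05 per 25 mg/kg (SE, limma adjusted p = 0.0404). With median centring the slope was -0.09 (limma adjusted p = 0.589), and the difference at 75 mg/kg was -0.16, or -0.35 relative to the median of all genes. The call along dose was also lost with processed signals (limma adjusted p = 0.136), with Cy5 alone (0.144), without the dim probe filter (0.0528) and on only the arrays that had Adipoq (0.268), with slopes of -0.17, -0.21, -0.19 and -0.18. It was lost in 11 of the 17 fits that left out 1 array, and held without control replicate 1 or 2, or replicate 6, 8, 12 or 19. Within the slides its difference at 75 mg/kg was -0.31, -0.63 and -0.69, from 1 or 2 arrays of each group per slide.

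Adipor2 was lower at 75 mg/kg than in controls. This receptor (transcript NM_197985, chromosome 6) was well above background on all 17 arrays, with Cy5 signals of 3442 to 14416. Its log2 ratio was 1.02, 0.79, 1.16, 1.31 and 1.27 in control replicates 1 to 5. It was 1.11, 1.01, 0.96 and 0.79 at 25 mg/kg, 0.52, 0.71, 0.58 and 0.94 at 50 mg/kg, and 0.60, 0.55, 0.18 and 0.33 at 75 mg/kg. The highest array at 75 mg/kg was below the lowest control, and only 75 mg/kg was separated in this way. Of all genes 3.3% were separated from control at this dose, and 1.31% with the dosed arrays lower. Group means were 1.11 ± 0.21 (SD, n = 5), 0.97 ± 0.13, 0.69 ± 0.19 and 0.42 ± 0.20 (n = 4 each). Dose groups accounted for 73.2% of the variance, a share that includes what means of few animals give without an effect of dose.

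Against control, Adipor2 fell by 0.69 ± 0.13 at 75 mg/kg (SE, limma adjusted p = 0.00948), which is 1.62-fold lower, with an interval from -0.96 to -0.43. The differences at 25 and 50 mg/kg were -0.14 ± 0.13 (limma adjusted p = 0.999) and -0.42 ± 0.13 (adjusted p = 0.417), and 75 against 25 mg/kg gave -0.55 ± 0.13 (adjusted p = 0.226). Along dose it fell by 0.23 ± 0.04 per 25 mg/kg (limma adjusted p = 0.0024). Within slides 1, 2 and 3 the values at 75 mg/kg were -0.30, -0.87 and -0.94. They come from 1, 2 and 1 dosed arrays and 2, 2 and 1 controls, too few to count as separate replications. Without control replicate 2 the difference was -0.77 (limma adjusted p = 0.00318), and without 75 mg/kg replicate 17 it was -0.76 (adjusted p = 0.0216). It was smallest without 75 mg/kg replicate 19, at -0.62 (limma adjusted p = 0.0314). The highest limma adjusted p without 1 array was 0.0412, without 75 mg/kg replicate 20. With only the compared groups in the fit it was 0.04998, barely under the threshold. The call was lost when arrays were centred on their medians in place of loess. The difference was then -0.29 ± 0.31 (limma adjusted p = 0.624), while the median of all genes at 75 mg/kg moved to 0.19, and relative to that median Adipor2 stood at -0.48.

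**Figure D3:**
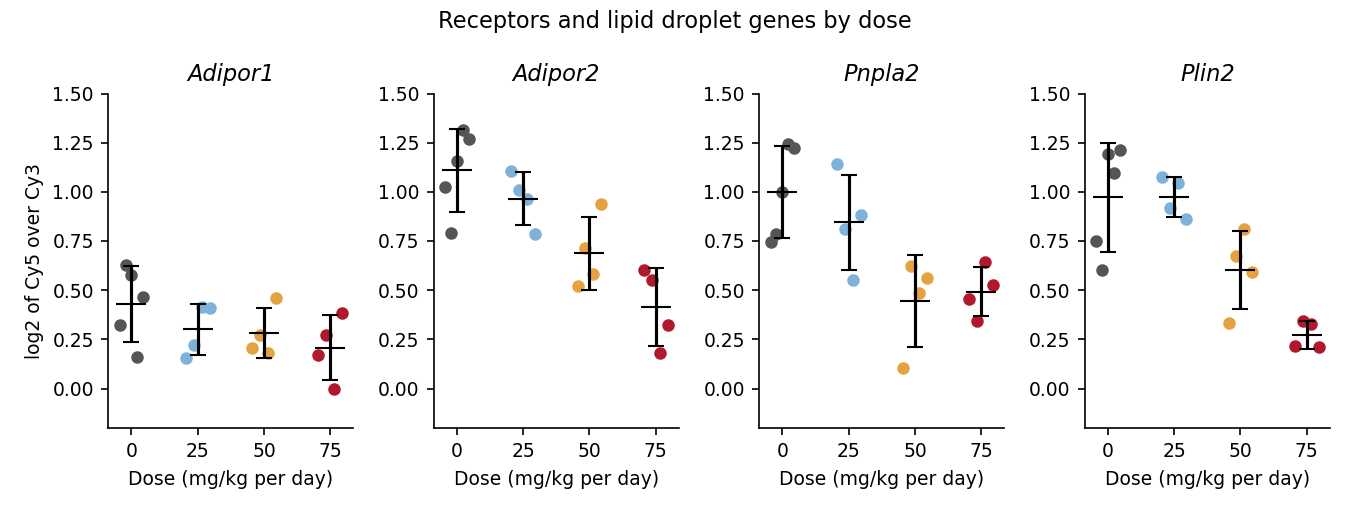
Log2 ratio of Cy5 over Cy3 against dose for both receptors, Pnpla2 and Plin2, with 1 point per animal and bars for the mean ± SD (n = 5 controls, n = 4 at each dose). The means of Adipor2 go from 1.11 in controls to 0.42 at 75 mg/kg and those of Adipor1 from 0.43 to 0.21.

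Adipor1 (transcript NM_028320, chromosome 1) was measured on every array at Cy5 signals of 468 to 1620.5. Its log2 ratio was 0.32, 0.63, 0.58, 0.16 and 0.46 in controls, 0.15, 0.22, 0.41 and 0.41 at 25 mg/kg, 0.20, 0.27, 0.18 and 0.46 at 50 mg/kg, and 0.17, 0.27, 0.00 and 0.39 at 75 mg/kg. Every dose overlapped the controls. The difference at 75 mg/kg was -0.22 ± 0.11 (limma adjusted p = 0.526; interval -0.46 to 0.01), and with median centring it turned to 0.12, or -0.07 relative to the median of all genes. Dose groups accounted for 26.5% of its variance, a share that includes what means of few animals give without an effect of dose.

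Whether the receptors differed in response was tested on the difference of their log2 ratios within each array, Adipor2 minus Adipor1. It was 0.70, 0.16, 0.58, 1.16 and 0.80 in controls and 0.43, 0.28, 0.18 and -0.06 at 75 mg/kg, so control replicate 2 lay among the dosed animals. The mean went from 0.68 ± 0.36 to 0.21 ± 0.21, a change of -0.47 (exact two-sided permutation test, p = 0.0635, where 126 arrangements allow no less than 0.0159). At 25 and 50 mg/kg the changes were -0.01 and -0.27 (exact permutation p = 0.952 and 0.19). Adjusted over the 3 doses the values were 0.952, 0.285 and 0.19, so a difference between the receptors was not established. Without control replicate 2, the only control among the dosed animals, the change at 75 mg/kg was -0.60. Its exact permutation p = 0.0286 is the smallest that the remaining arrays allow. Leaving out that array removes the only overlap, so this p was fixed by the choice of array. It is also not adjusted over the 3 doses and tests nothing further.

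The receptors were then set against the fat content of the sections. On the 6 arrays without measurable Adipoq, Adipor2 lay between 0.52 and 1.01, and on the 11 others between 0.18 and 1.31. Both the highest and the lowest Adipor2 values, in control replicate 4 and 75 mg/kg replicate 19, came from sections with Adipoq (4.12 and 2.84). With Adipoq as a covariate, Adipor2 fell by 0.68 ± 0.13 at 75 mg/kg (limma adjusted p = 0.0257), and the mean of all 8 adipocyte markers in its place gave -0.68 ± 0.13 (adjusted p = 0.0206). Leaving out control replicate 3 or 4, or 75 mg/kg replicate 19 or 20, ended the former call (limma adjusted p = 0.0785, 0.0575, 0.0877 and 0.112). On only the 11 arrays with Adipoq, 4 controls and 2 at 75 mg/kg among them, the difference was -0.94 ± 0.15 (adjusted p = 0.0259), a subset chosen after the data were seen. Adipor1 with Adipoq as covariate stood at -0.27 ± 0.11 (limma adjusted p = 0.404).

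**Figure D4:**
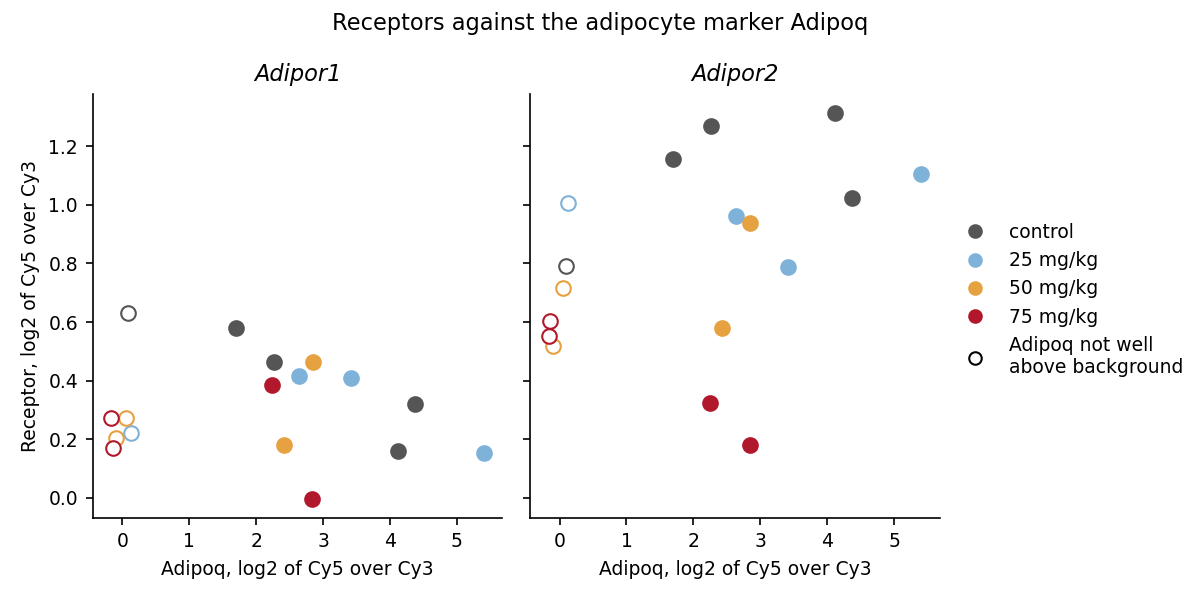
Log2 ratio of Adipor1 (left) and Adipor2 (right) against that of Adipoq, with 1 point per array, coloured by dose and open where Adipoq was not well above background. The 6 open points sit near 0 on the Adipoq axis with Adipor2 between 0.52 and 1.01, and the filled red points (75 mg/kg) are the lowest for Adipor2 at Adipoq values of 2.24 and 2.84.

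Because the arrays fell into clusters by Adipoq, correlations of receptors with markers were taken within the 11 arrays that had it, over 16 pairs. The dose groups' means were left in, so a shared change with dose enters these values. Adipor2 against Adipoq gave Pearson's r = 0.294 (permutation p = 0.382, adjusted 0.611) and Spearman's rho = 0.173 (p = 0.614, adjusted 0.893), and r = 0.155 without the 2 arrays farthest from the median of Adipoq. Adipor1 against Adipoq gave r = -0.495 (permutation p = 0.121, adjusted 0.323) and rho = -0.573 (p = 0.0701, adjusted 0.187), with r = -0.486 without those 2. In these 11 arrays 0 of the 16 pairs passed after adjustment, and 3 had an unadjusted permutation p under 0.05 for Pearson's r: Adipor2 with Pnpla2 (r = 0.731, p = 0.0111, adjusted 0.178), Adipor2 with Lipe (r = 0.626, p = 0.0387, adjusted 0.239) and Adipor1 with Cfd (r = -0.607, p = 0.0449, adjusted 0.239). Without the 2 arrays farthest from the marker's median, r was 0.579, 0.745 and -0.269 for these pairs, so the last rests on those arrays. With median centring on the same 11 arrays r was 0.786, 0.615 and 0.141, and Adipor2 with Pnpla2 then passed by Spearman's rho (0.864, permutation p = 0.00132, adjusted 0.0211). After the dose groups' means were taken off, under loess, r for these 3 pairs was 0.41, 0.621 and -0.375. Adipor2 with Pnpla2 then had rho = 0.373 (permutation p = 0.261, adjusted 0.522). With dose left in, Adipor1 with Retn (rho = -0.636) and Adipor2 with Lep (0.655) also had an unadjusted permutation p under 0.05 by rho (adjusted 0.127 for both).

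Pnpla2 was measured on all arrays and showed no such clusters. Over 17 arrays, with the dose groups' means left in, its r with Adipor2 was 0.754 (permutation p = 0.00045, adjusted 0.0072) and rho 0.797 (permutation p = 0.00021, adjusted 0.00336), and r was 0.627 without the 2 arrays farthest from the median of Pnpla2. After the dose groups' means were taken off, r was 0.443 (permutation p = 0.0739, adjusted 0.296), below the values of Adipor2 with Lipe (0.517) and Lep (0.470). Of either sign and receptor, the largest r with those means off was that of Adipor1 with Lep, a gene close to background. It was -0.615 (permutation p = 0.00874, adjusted 0.14), with rho = -0.659 (permutation p = 0.00487, adjusted 0.0779). With dose left in, r of Adipor2 with Pnpla2 was 0.908 among the 6 arrays of slide 1 (0.813 without the 2 farthest) and 0.735 among the 7 of slide 2, where it turned to -0.139 without the 2 farthest and so rests on those arrays. The 4 arrays of slide 3 are too few. Both Adipor2 and Pnpla2 had lower group means at 50 and 75 mg/kg than in controls, and with those means removed their relation did not pass.

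By the same measure of likeness, with dose group means off, the named genes closest to Adipor2 were Trmt44 (r = 0.830), Nsdhl (0.825), an enzyme of cholesterol synthesis, Usp8 (0.822), a deubiquitinase of endosomes, the receptor kinase Tyro3 (0.807) and Spata6 (0.796). The adipocyte markers were left out of this ranking, so their absence from it carries no information. Their own r with Adipor2, by the same measure, ran from 0.039 (Cfd) to 0.517 (Lipe), below the value of Spata6.

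Beyond the markers, 30 further adipocyte genes were listed. At 75 mg/kg 0 of the 26 tested passed in either direction (4 had an unadjusted limma p under 0.05, where 10.1% of all genes did), 23 of 26 had a negative difference, and their median was -0.31. Cidec ran from 0.12 to 5.42 over the arrays and differed by -1.06 ± 0.88 (limma adjusted p = 0.749). Car3, a carbonic anhydrase abundant in fat, ran from 0.36 to 5.71 and differed by -1.14 ± 0.81 (adjusted p = 0.703). Pparg and Cebpa, regulators of fat cell identity, were measured on the same arrays. Pparg lay between 1.25 and 1.79 and differed by -0.04 ± 0.10 (limma adjusted p = 0.938), and Cebpa lay between 2.63 and 4.08 and differed by 0.13 ± 0.29 (adjusted p = 0.929).

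Among 16 tested genes of lipolysis and the lipid droplet (of 18 listed), 1 fell at 75 mg/kg, none rose, and the median was -0.06. Of all genes 1.1% passed at this dose and 0.21% passed as lower. An unadjusted limma p under 0.05 was reached by 4 of the 16, and by 10.1% of all genes. The gene that fell was Plin2, the perilipin that coats droplets in cells of many types. Its log2 ratio was 0.75, 0.60, 1.19, 1.09 and 1.21 in controls and 0.21, 0.34, 0.33 and 0.21 at 75 mg/kg, with no overlap between them. Such separation occurred for 3.3% of all genes (1.31% with the dosed arrays lower). Plin2 fell by 0.70 ± 0.13 at 75 mg/kg (SE, limma adjusted p = 0.011) and by 0.24 ± 0.04 per 25 mg/kg along dose (adjusted p = 0.00461). Without control replicate 2 its difference at 75 mg/kg was -0.79 (limma adjusted p = 0.00279), and without 75 mg/kg replicate 17 it was -0.68 (adjusted p = 0.0456). With median centring its difference was -0.31 (limma adjusted p = 0.575), or -0.50 relative to the median of all genes. The difference was -0.56 with the scanner software's processed signals (limma adjusted p = 0.144), -0.70 with only the compared groups in the fit (0.0578) and -0.80 with only the arrays that had Adipoq (0.056). Its slope on Adipoq was 0.03 ± 0.03 (limma adjusted p = 0.753).

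Of 31 tested genes of adiponectin signalling and its relatives (of 34 listed), 0 passed at 75 mg/kg in either direction (3 had an unadjusted limma p under 0.05, where 10.1% of all genes did). Their median was -0.09, and 23 of 31 were negative. Appl1, the adaptor that binds both receptors, differed by 0.20 ± 0.12 (limma adjusted p = 0.628). T-cadherin (Cdh13), which binds adiponectin at the cell surface, differed by 0.42 ± 0.15 (adjusted p = 0.292). Prkaa1, a catalytic subunit of AMPK, and Ppara, the nuclear receptor tied to AdipoR2, differed by -0.06 ± 0.11 and -0.06 ± 0.17 (limma adjusted p = 0.903 and 0.939). Of 10 tested genes for other adipokine receptors, insulin signalling and the resistin family, 0 passed at 75 mg/kg (4 had an unadjusted limma p under 0.05). Irs1, the insulin receptor substrate, fell along dose by 0.14 ± 0.04 per 25 mg/kg (limma adjusted p = 0.0477), a call lost in 14 of the 17 fits without 1 array. It was also lost with median centring (-0.06, limma adjusted p = 0.566), processed signals (-0.11, 0.278), the offset of 10, Cy5 alone, the deposited series table, no dim probe filter and only the arrays that had Adipoq, where the slope was -0.16 to -0.14 (limma adjusted p = 0.0547 to 0.326 over these 5).

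Markers of other cells were read beside these results. All 9 smooth muscle markers tested were negative at 75 mg/kg, 0 of 9 passed (3 had an unadjusted limma p under 0.05, where 10.1% of all genes did), and their median was -0.46. Their mean deviation ranged from -0.08 to 0.57 in controls and from -0.56 to 0.04 at 75 mg/kg. For the 8 adipocyte markers the same mean ranged from -1.16 to 1.11 in controls and from -1.24 to 0.45 at 75 mg/kg. Macrophage markers had a median of 0.46 (0 of 7 passed, 2 unadjusted) and ranged from -0.81 to 0.67 in controls and from -0.20 to 0.34 at 75 mg/kg. Squamous markers had a median of -0.05 and ranged from -0.27 to 0.13 and from -0.27 to 0.28. Of those 10, Dsg1a, a desmosomal cadherin, rose by 1.69 ± 0.33 (limma adjusted p = 0.0154). Glandular stomach markers had a median of 1.12 (0 of 8 passed, 0 unadjusted), and ranged from -1.33 to 0.16 in controls and from -1.03 to 1.59 at 75 mg/kg. The part of these other cells in the Adipor2 and Plin2 results was not tested.

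**Figure D5:**
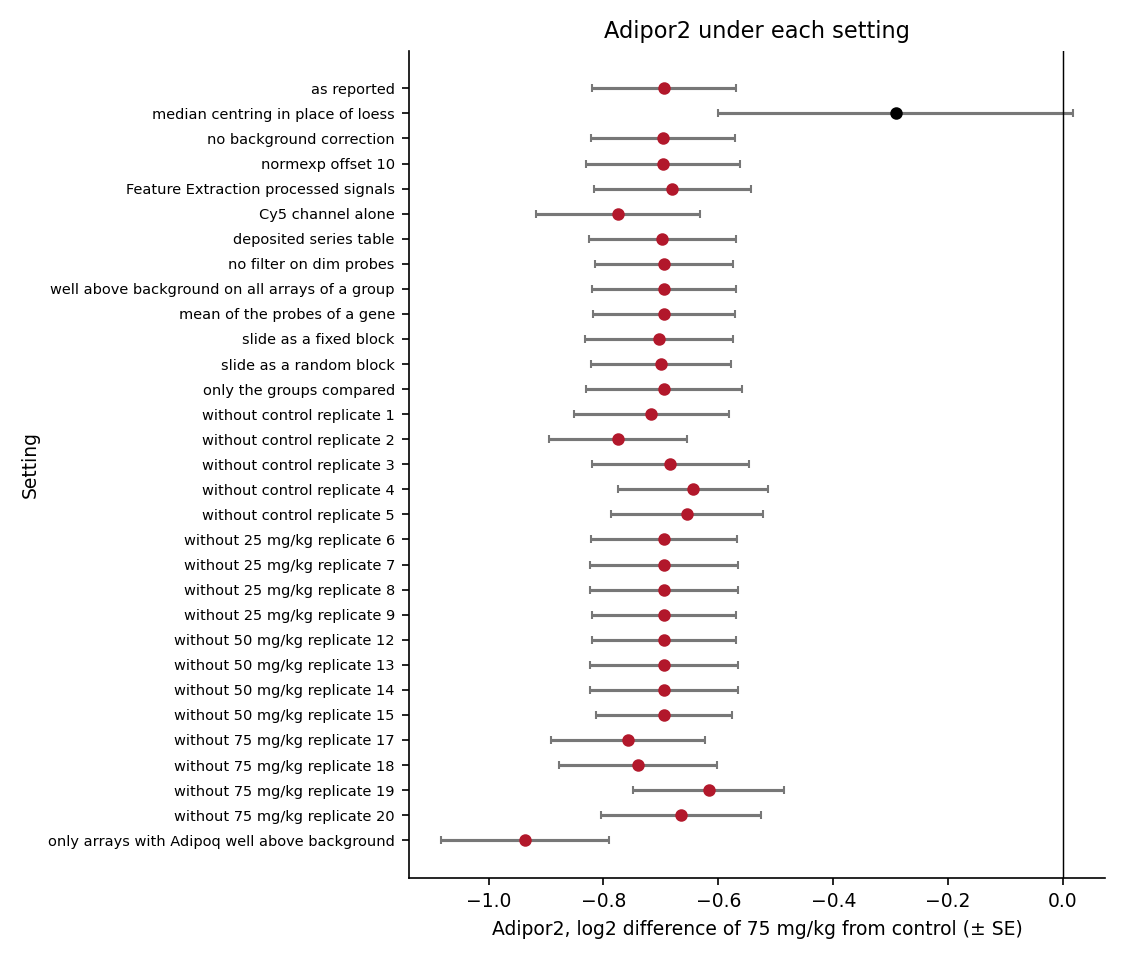
Log2 difference of Adipor2 at 75 mg/kg from control (± SE) as reported, under each other processing, without each array in turn, and on only the arrays with measurable Adipoq. Points are red where the limma adjusted p was under 0.05, and the 1 black point is median centring (-0.29).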

How the data were processed

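The authors deposited 1 scanner table per array with the spot and background intensity of both channels, exported from Feature Extraction (version 10.7.3.1, per the file headers). They also deposited a series table of log2 values, whose scale is not given in the sources used here. Its columns correlated at 0.9991 to 0.9998 with log2 ratios after loess without background correction, and it served as an alternative.

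From the deposited median intensities, background was corrected by normexp (offset 50), arrays were normalized by loess, and control and outlier-flagged spots were left out. Spots of a probe were averaged. A probe was kept if at least 4 arrays had it well above background in Cy5 (27574 of 55681 were), with the brightest probe per gene. Through RefSeq transcripts 26413 probes had 1 symbol, 0 had several and 29268 had none. The array design names an older build, so array coordinates are not given.

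Limma 3.58.1 (R 4.3.3) was fitted on log2 ratios over all 17 arrays with 4 group means, two-sided, with Benjamini-Hochberg adjustment over all genes and a threshold of 0.05. The test was tried on simulated data. Confidence intervals are 95%, and the number of arrays limits their precision. The text names all 10 genes, listed genes past the threshold at any dose, 8 listed genes named whatever their values, and the 5 genes most like Adipoq and Adipor2 each. The members and lists were chosen with earlier results of these data known.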

Additional observations from a re-analysis of the deposited data

How the results depend on the processing

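Over every result and alternative with a test, 841 of 909 pairs kept their direction and side of the threshold. This count does not measure robustness. It includes results far from the threshold, which can hardly change side. Leaving out an array of a group not compared also leaves a difference of group means as it was. At 75 mg/kg 1 of the 10 genes was called as reported, 1 under every fit that left out an array, and 0 with median centring. Along dose 2 were called as reported and 1 to 2 without 1 array. That count was 0 with median centring, and 1 with processed signals, with Cy5 alone, without the dim probe filter and with only the arrays that had Adipoq. Adipor2 minus Adipor1 at 75 mg/kg (-0.47 as reported) was -0.50 with Cy5 alone and -0.48 from the deposited series table (exact permutation p = 0.0476 for both), and -0.60 to -0.35 without 1 array. Adipor2 beside Adipoq (-0.68 as reported) was -0.13 with median centring and -0.66 with processed signals (limma adjusted p = 0.785 and 0.0501), and -0.80 to -0.56 without 1 array. Median centring turned the sign of Pnpla2 (0.11), Adipor1 (0.12) and Adipor2 (0.15) at 25 mg/kg, and of Adipor1 at 50 mg/kg (0.029), at 75 mg/kg (0.12), at 75 against 25 mg/kg (0.0018) and along dose (0.029); the cause was not tested. Fabp4 at 75 mg/kg was -0.027 with an offset of 10 and -0.13 to 0.16 without 1 array, Adipoq at 25 mg/kg was -0.44 to 1.31 without 1 array, and Cfd at 75 mg/kg was 0.39 with only the arrays that had Adipoq. Requiring a probe to be well above background on all arrays of a group removed Adipoq, Plin1, Cfd and Retn, so they have no value there. Of all genes, 236 were called at 75 mg/kg (191 higher and 45 lower), against 145 with median centring (142 and 3), 424 and 383 with slide as a fixed or random block, 155 with only the compared groups, and 89 (86 and 3) with only the arrays that had Adipoq. No paired analysis was possible because no replicate number is shared between dose groups. Low signal over background limits Lep and Lipe, and Adipoq, Plin1, Retn and Cfd where they were not detected.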

Other observations

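Adipsin, the product of Cfd, cleaves factor B bound to C3 in the alternative complement pathway, and the genes of its partners were measured on the same arrays. They were picked out after their values were seen. None passed at 75 mg/kg: Cfb differed by 0.76 ± 0.30 (SE, limma adjusted p = 0.389), C3 by 0.61 ± 0.26 (adjusted p = 0.429) and C3ar1, a receptor for a C3 fragment, by 0.26 ± 0.12 (adjusted p = 0.508), where Cfd stood at -1.39 ± 1.83. Cfd itself rose with Adipoq by 1.64 ± 0.13 per log2 unit (limma adjusted p = 6.26e-06), a slope that includes the step between arrays with and without measurable Adipoq. Cfb, C3 and C3ar1 had slopes on Adipoq of -0.02 ± 0.07, 0.04 ± 0.06 and 0.03 ± 0.03 (limma adjusted p = 0.955, 0.85 and 0.789). Retnla, a relative of resistin made by macrophages and fat, had a slope of 0.11 ± 0.03 (adjusted p = 0.622), and the leptin receptor Lepr differed by 0.01 ± 0.17 at 75 mg/kg (adjusted p = 0.987).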
